A study of Homo sapiens with 4 samples.

Results

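The genes described here are the receptors filed under GPR symbols, most of them named when no ligand was known. They were chosen by symbol: every entry of the deposited count table named GPER, or GPR followed by a digit. The rule found 101 genes of 23368 in the table. RNA was sequenced from 4 human leukemia cell lines of the precursor-B type (acute lymphoblastic leukemia), 1 library each, cultured in RPMI medium with serum. In RS4;11 and SEM the translocation t(4;11) rearranges the MLL gene, whereas NALM6 and REH lack it (n = 2 lines a group). Each line descends from the leukemia of 1 patient, so a difference between the groups cannot be told apart from any other difference between these lines, and the p-values measure the spread between lines. In such bulk RNA, fewer cells expressing a gene and less RNA per cell cannot be told apart either. Total counts ran from 33620574 (SEM) to 84212986 (REH), and a level of 3 counts was 0.0892 CPM (SEM) and 0.0356 CPM (REH). CPM is a gene's count scaled to a line's summed gene counts, in reads per 1e6. All 10 precursor-B markers listed, among them CD79A and PAX5, reached 1 CPM in at least 1 line. Their summed level ran from 1218 CPM (SEM) to 4405 CPM (NALM6). Single markers were uneven: VPREB1 had 0.226 CPM in REH, and CD24 had 6.01 CPM in SEM against 1895 CPM in NALM6. In 5 of the 10, both t(4;11) lines lay below both other lines, against 27.3% of all genes with at least 10 counts in 1 line. The opposite order was found for 0 of them, against 18.1% of all genes. The T-cell receptor complex genes CD3D, CD3E and CD3G, the globin genes HBA1 and HBB, and ELANE and S100A8 of granulocytes were at 0 counts in all 4 lines. Other markers of these lineages were counted: 4 of the 8 myeloid and 2 of the 7 erythroid and megakaryocyte markers reached 1 CPM in at least 1 line. MPO had 34.2 CPM in REH, and CSF1R had 33.3 CPM in SEM and 10.0 CPM in RS4;11. In RS4;11, ITGA2B had 6.79 CPM and GP9 had 4.15 CPM. Of the 8 T and NK cell markers, NKG7 alone passed 1 CPM, and the summed level of that list was 26.1 and 11.2 CPM for RS4;11 and SEM, compared with 0.981 and 1.52 CPM in NALM6 and REH.

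G protein-coupled receptors are membrane proteins with a bundle of transmembrane helices. An agonist outside the cell makes them activate a heterotrimeric G protein inside it, whose alpha and beta-gamma subunits then act on adenylyl cyclases, phospholipase C beta and ion channels. Receptor kinases and arrestins switch the receptor off, and RGS proteins shorten the life of the active alpha subunit. Several GPR genes have since been given ligands, such as oxysterols for GPR183, an estrogen for GPER and protons for GPR65. Others code for multipass proteins of the Golgi or lysosome that are not known to act as classical receptors, among them GPR89A, GPR107 and GPR108. In lymphoid tissue GPR183 guides B cells within the follicle, and GPR18, GPR171 and GPR174 are typical of lymphocytes.

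Start regions are printed for some members with a RefSeq promoter sequence whose levels differed widely between lines. GPR85 was counted almost only with t(4;11). GPER with its neighbour GPR146, and GPR160, were all higher without it. GPR63 had 0 counts in REH alone. These start regions were chosen after the genes' values were seen, without a ranking of all members. Each runs from 250 bases before to 50 bases after the gene start in RefSeq (build GRCh38.p14), 5′ to 3′ on the gene's strand, with CG dinucleotides, the sites of DNA methylation, in capitals.
GPR85, chr7:113087675-113087974, minus strand: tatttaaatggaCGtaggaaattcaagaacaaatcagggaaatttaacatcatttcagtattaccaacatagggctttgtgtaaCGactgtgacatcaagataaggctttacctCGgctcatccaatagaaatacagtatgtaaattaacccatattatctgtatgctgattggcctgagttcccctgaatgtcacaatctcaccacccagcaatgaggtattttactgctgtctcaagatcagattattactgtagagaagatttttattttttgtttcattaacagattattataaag
GPER, chr7:1086868-1087167, plus strand: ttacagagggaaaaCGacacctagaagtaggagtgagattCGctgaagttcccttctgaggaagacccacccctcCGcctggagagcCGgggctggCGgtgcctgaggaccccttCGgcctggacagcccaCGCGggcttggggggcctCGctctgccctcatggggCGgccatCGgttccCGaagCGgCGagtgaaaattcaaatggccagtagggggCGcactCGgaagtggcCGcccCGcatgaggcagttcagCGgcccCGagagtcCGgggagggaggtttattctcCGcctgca
GPR146, chr7:1044296-1044595, plus strand: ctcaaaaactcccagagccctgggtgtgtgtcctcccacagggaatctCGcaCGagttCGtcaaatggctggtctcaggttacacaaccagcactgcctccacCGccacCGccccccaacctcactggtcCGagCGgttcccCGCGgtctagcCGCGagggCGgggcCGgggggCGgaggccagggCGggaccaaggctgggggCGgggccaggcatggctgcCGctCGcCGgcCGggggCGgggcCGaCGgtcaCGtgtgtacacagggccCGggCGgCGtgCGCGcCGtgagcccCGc
GPR160, chr3:170037745-170038044, plus strand: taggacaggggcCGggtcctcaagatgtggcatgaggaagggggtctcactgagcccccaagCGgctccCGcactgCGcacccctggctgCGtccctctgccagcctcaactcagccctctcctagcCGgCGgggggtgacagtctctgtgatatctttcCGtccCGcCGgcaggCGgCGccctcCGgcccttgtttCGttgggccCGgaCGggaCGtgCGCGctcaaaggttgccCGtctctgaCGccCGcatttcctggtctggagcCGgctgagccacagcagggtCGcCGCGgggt
GPR63, chr6:96837428-96837727, minus strand: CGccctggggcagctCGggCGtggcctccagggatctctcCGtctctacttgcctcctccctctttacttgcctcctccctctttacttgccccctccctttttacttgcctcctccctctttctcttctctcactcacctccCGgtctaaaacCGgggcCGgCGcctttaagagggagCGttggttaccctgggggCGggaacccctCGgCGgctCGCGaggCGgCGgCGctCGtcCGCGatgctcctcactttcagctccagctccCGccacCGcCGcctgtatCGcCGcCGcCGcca
The sequence CG reads the same on both strands. It occurs 3 times in the GPR85 window, 22 times for GPER, 31 times for GPR146, 26 times for GPR160 and 27 times for GPR63. Over the 35116 RefSeq windows of the same length the median was 14, and 96.04% held at least 1 CG. Fewer CG than in the GPR85 window were found in 18.2% of those windows, and fewer than in the GPR146 window in 79.3%. A sequence was found for 73 of the 101 members (72.3%). CG content was not compared over the whole set, and no methylation was measured.

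Most GPR genes had little or no RNA in these lines. Of the 101 members, 15 had 0 counts in all 4 lines, 57 reached 10 counts in at least 1 line and 47 reached 1 CPM in at least 1 line. The last number is 46.5% of the members, while 57.7% of all genes reached that level. The members at 1 CPM or more numbered 33 in RS4;11, 33 in SEM, 28 in NALM6 and 34 in REH. These 4 sets overlapped only in part: 18 members passed 1 CPM in every line, 10 in exactly 3 lines, 7 in exactly 2 and 12 in a single line. Added over all members, GPR RNA came to 569 CPM (RS4;11), 542 CPM (SEM), 695 CPM (NALM6) and 701 CPM (REH). The sums of both lines with t(4;11) lay below those of both lines without it (556 ± 19.2 CPM against 698 ± 4.63 CPM, SD, n = 2 lines each). Single members weigh heavily in these sums. GPR155 gave 112 CPM in NALM6 and 18.8 CPM in REH, and GPR125 gave 47.0 and 194.8 CPM. The order of the sums is therefore not a shift shared by the members: of those tested, 22 had a log2 change above 0 and 22 below.

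**Figure D1:**
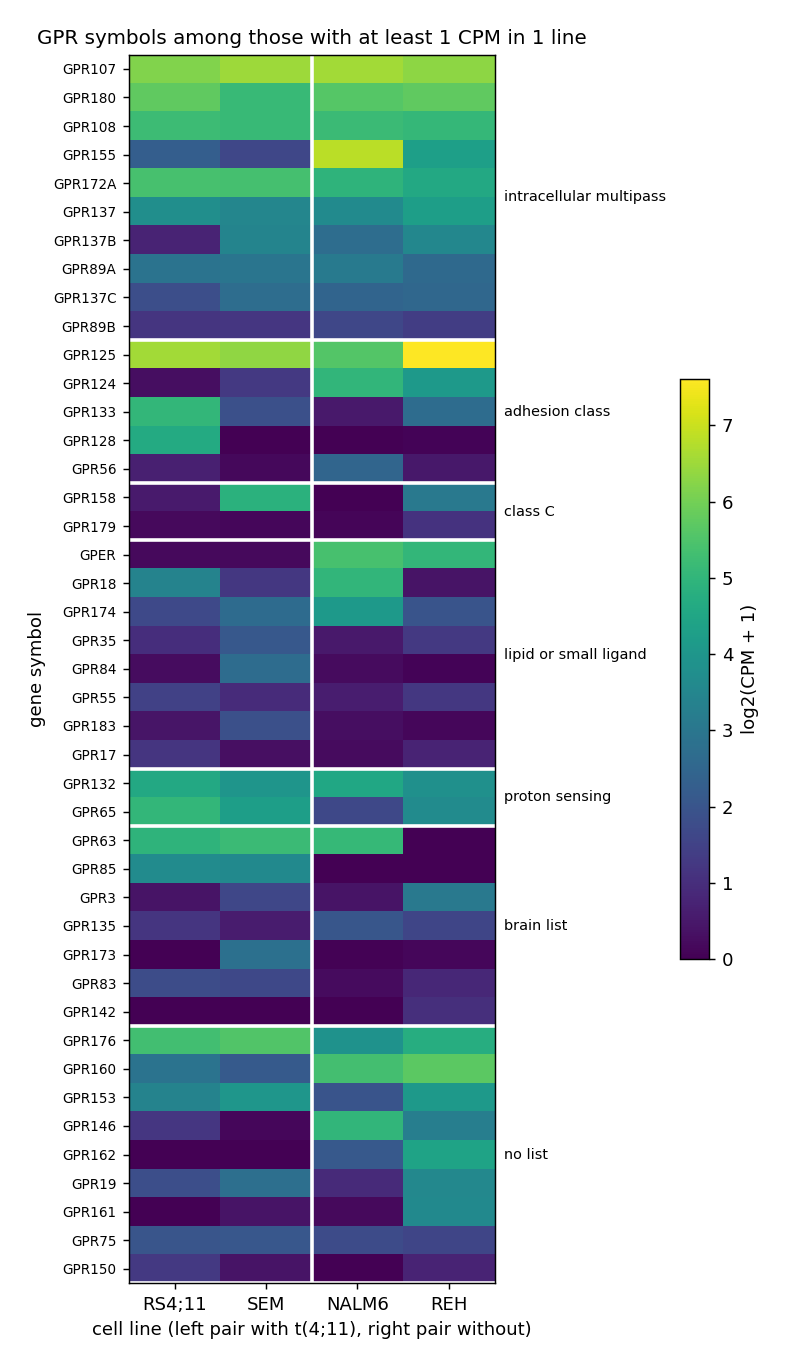
Level of 43 of the 47 GPR symbols that reached 1 CPM in at least 1 line, as log2(CPM + 1), with genes as rows grouped by list and the 4 lines as columns. GPR107, GPR180 and GPR108 are bright in every column, while GPER, GPR85, GPR63 and GPR128 are dark in some columns and bright in others.

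GPR107, GPR108, GPR180, GPR172A and the adhesion receptor GPR125 were counted in all 4 lines at well over 1 CPM. GPR107, a Golgi and trafficking protein, had 70.3 CPM (RS4;11), 88.7 CPM (SEM), 93.2 CPM (NALM6) and 79.2 CPM (REH). Its relative GPR108 had 36.2, 34.3, 35.5 and 32.3 CPM in the same order, a span of 1.12-fold between the highest and lowest line. The levels of both genes overlapped between the groups. GPR180, another multipass protein, had 53.2, 33.9, 48.1 and 52.7 CPM. GPR172A, a riboflavin transporter now called SLC52A2 and not a receptor, had 40.9 and 40.1 CPM with t(4;11) against 30.1 and 22.9 CPM without it. Its groups did not overlap, and its log2 change of 0.71 (SE 0.25) had an edgeR adjusted p of 0.415. GPR125, an adhesion receptor also called ADGRA3, had 92.7 and 80.6 CPM for RS4;11 and SEM, compared with 47.0 CPM (NALM6) and 194.8 CPM (REH). The lines without t(4;11) thus held both the lowest and the highest GPR125 level.

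Levels of different genes can be compared only per length, for which the authors' deposited Cuffdiff table gives FPKM (fragments scaled to transcript length and library size) summarised per group. In that table GPR172A stood at 23.2 FPKM with t(4;11) and 14.3 FPKM without it, GPR125 at 19.8 and 25.9 FPKM, GPR108 at 18.3 and 16.7 FPKM, and GPR176 at 16.2 and 7.01 FPKM. GPR107, ahead of all these but GPR125 in mean CPM over the 4 lines, was at 11.7 and 11.9 FPKM in the authors' deposited table. Without t(4;11), GPR160 was next to GPR125 at 23.1 FPKM, and GPER at 13.1 FPKM, GPR146 at 11.8 FPKM and GPR18 at 11.1 FPKM were close to GPR107 in the authors' deposited table. These are group values with no spread given, so the order of close neighbours is not established.

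**Figure D2:**
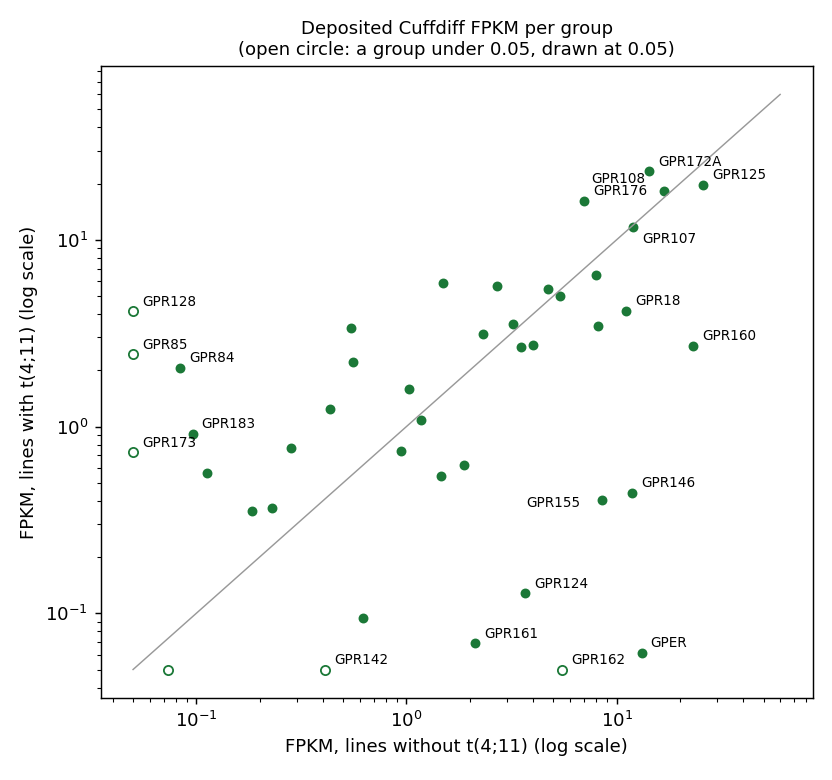
The authors' deposited Cuffdiff FPKM of GPR symbols, 4 left out, that reached 1 CPM in at least 1 line, with the lines lacking t(4;11) on the horizontal and those carrying it on the vertical log axis; the grey line marks equal levels and open circles a group under 0.05 FPKM, drawn at 0.05. GPR107, GPR108 and GPR125 lie near the line, GPER (0.0616 against 13.1 FPKM) and GPR160 far below it, and GPR85 far above it.

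The comparison of lines with and without t(4;11) asked which GPR genes differ with the translocation. Of the 101 members, 44 had enough counts to be tested, and edgeR's quasi-likelihood test, adjusted over all 13844 genes tested, called none of them and 0% of all genes. At an unadjusted p under 0.05 it had 3 members higher with t(4;11) (6.82%, against 6.18% of all genes) and 5 lower (11.4%, against 5.87% of all genes). The authors' deposited DESeq table, with an adjusted p for 86 members, called 1 of them higher (background 0.934% of genes) and 3 lower (background 0.63%). The authors' deposited Cuffdiff table tested 49 members and called 0 higher (background 1.23%) and 2 lower (background 1.11%). From these counts the exact test of edgeR called 2 of 44 members higher (4.55%, against 2.02% of all genes) and 5 lower (11.4%, against 1.16%). DESeq2 called 2 of 48 members higher (4.17%, against 5.64% of all genes) and 6 lower (12.5%, against 5.53%). The edgeR exact test calls included GPR85 as higher, and GPER, GPR124, GPR155, GPR160 and GPR162 as lower; DESeq2 added GPR146. The median log2 change of the 44 members was 0.06, against -0.02 over all genes, and 22 lay above and 22 below 0. Their median size without sign was 1.22, against 0.46 over all genes.

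**Figure D3:**
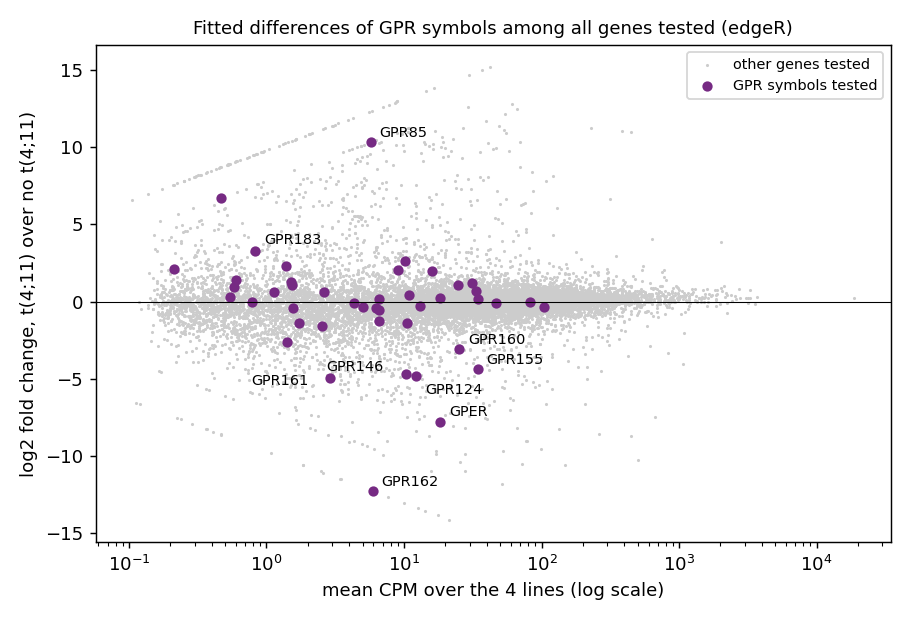
Fitted log2 change (t(4;11) over no t(4;11), edgeR) against mean CPM over the 4 lines on a log axis, for the 44 GPR symbols tested (purple) and all other genes tested (grey); most members with a size of at least 3 are labelled. GPR85 lies near the top and GPER and GPR162 near the bottom, and the fitted value of GPR162 is set by the prior count because both t(4;11) lines had 0 counts.

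GPER, the G protein-coupled estrogen receptor of intracellular membranes, was nearly silent with t(4;11). It had 8 counts (0.154 CPM) in RS4;11 and 5 counts (0.149 CPM) in SEM, against 40.9 CPM (NALM6) and 31.96 CPM (REH). The groups were far apart (0.151 ± 0.00389 against 36.4 ± 6.30 CPM, SD, n = 2 each), a mean difference of 240-fold. GPER had only 8 and 5 counts with t(4;11), so that group's SD and the fold are uncertain from counting alone. Its log2 change was -7.78 (SE 0.45), with the smallest edgeR adjusted p of the family, 0.102, and from -7.95 to -7.60 when any 1 line was left out. The adjusted p was 1.02e-14 in the authors' deposited DESeq table, while the q in the authors' deposited Cuffdiff table was 0.864.

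GPR146, whose product is known from cholesterol control in liver, lies in the same stretch of chromosome 7 (1036623 to 1177893, hg19), which Cuffdiff grouped with C7orf50. GPR146 had 1.29 CPM (RS4;11) and 0.0892 CPM (SEM) against 31.3 CPM (NALM6) and 8.60 CPM (REH), so that GPR146 and GPER both stood higher in both lines without t(4;11). Its log2 change of -4.72 (SE 1.67, edgeR adjusted p = 0.415) became -7.67 without RS4;11, -3.82 without SEM, -3.51 without NALM6 and -5.37 without REH. C7orf50, looked up after the values were seen, had 7.44 and 13.7 against 30.7 and 20.8 CPM, lower in the same pair of lines but by far less (log2 change -1.18, SE 0.48, edgeR adjusted p = 0.457). The library kit does not mark strand, and reads of overlapping genes here cannot be told apart.

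GPR160, an orphan receptor, was lower with t(4;11) at 6.44 CPM (RS4;11) and 3.42 CPM (SEM), against 39.7 CPM (NALM6) and 50.8 CPM (REH). The groups did not overlap and differed 9.18-fold in mean, with a log2 change of -3.09 (SE 0.48, edgeR adjusted p = 0.310) that stayed between -3.63 and -2.69 when any 1 line was left out. It was called in the authors' deposited DESeq table (adjusted p = 0.000394) and not in the authors' deposited Cuffdiff table (q = 0.129). It lies on chromosome 3 (169755735 to 169803183, hg19).

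GPR162, an orphan receptor of unknown ligand on chromosome 12 (6930963 to 6936583, hg19), had 0 counts in RS4;11 and in SEM, 3.39 CPM (NALM6) and 20.3 CPM (REH). Set against 3 counts over the t(4;11) group, its counts in the other group were at least 411.1-fold higher, a bound that covers counting error only. REH gave 1710 of the 1862 counts, and without REH the bound was 96.58-fold, without RS4;11 161.7-fold and without SEM 249.5-fold. The authors' deposited Cuffdiff table called it lower (q = 0.00418), and it was not called in the authors' deposited DESeq table (adjusted p = 0.132). Its edgeR adjusted p was 0.337. Of the lines without t(4;11), REH stood above NALM6.

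GPR155, a lysosomal membrane protein that senses cholesterol, had 3.82 and 2.05 CPM for RS4;11 and SEM, 112 CPM (NALM6) and 18.8 CPM (REH). The groups did not overlap, but NALM6 stood well above REH. The log2 change of -4.37 (SE 1.11, edgeR adjusted p = 0.360) was -2.57 without NALM6 and -5.15 without REH. The authors' deposited Cuffdiff table called it lower too (q = 0.0449), and it had an adjusted p of 1 in the authors' deposited DESeq table. GPR124 (ADGRA2), an adhesion receptor that works with WNT7 signals in brain vessels, had 0.212 and 1.40 against 31.4 and 15.97 CPM. Its log2 change of -4.79 (SE 1.22, edgeR adjusted p = 0.360) was -6.66 without SEM and -3.99 without RS4;11, and the authors' deposited DESeq table called it lower (adjusted p = 0.00213).

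GPR85 was the clearest member in the other direction. It belongs to the SREB receptors, orphans whose protein sequence is strongly conserved among vertebrates and which are best known from brain. It had 608 counts (11.7 CPM) in RS4;11 and 376 counts (11.2 CPM) in SEM, 0 counts in NALM6 and 1 count (0.0119 CPM) in REH. Both t(4;11) lines stood at nearly the same level, and the ratio of the groups' summed counts was 1485 with an exact 95% counting interval from 266 to 58730. The ratio was 969.3 without NALM6, and without REH, which held the single count, it was at least 172.1 against 3 counts in NALM6. Its edgeR adjusted p was 0.274. The gene lies on chromosome 7 (112720468 to 112727833, hg19) and had an adjusted p of 1.21e-07 in the authors' deposited DESeq table with no call in that by Cuffdiff (authors' deposited table, q = 0.864). The related SREB genes did not share this pattern: GPR173 had 200 counts (5.95 CPM) in SEM and at most 9 counts in any other line, and GPR27 had 0 counts throughout.

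GPR176, an orphan known from the circadian pacemaker of the brain, was abundant in all lines at 38.8 and 46.2 against 13.7 and 25.7 CPM. The groups did not overlap and differed 2.16-fold (log2 change 1.21, SE 0.41, edgeR adjusted p = 0.409). GPR176 was called in neither of the authors' deposited tables.

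**Figure D4:**
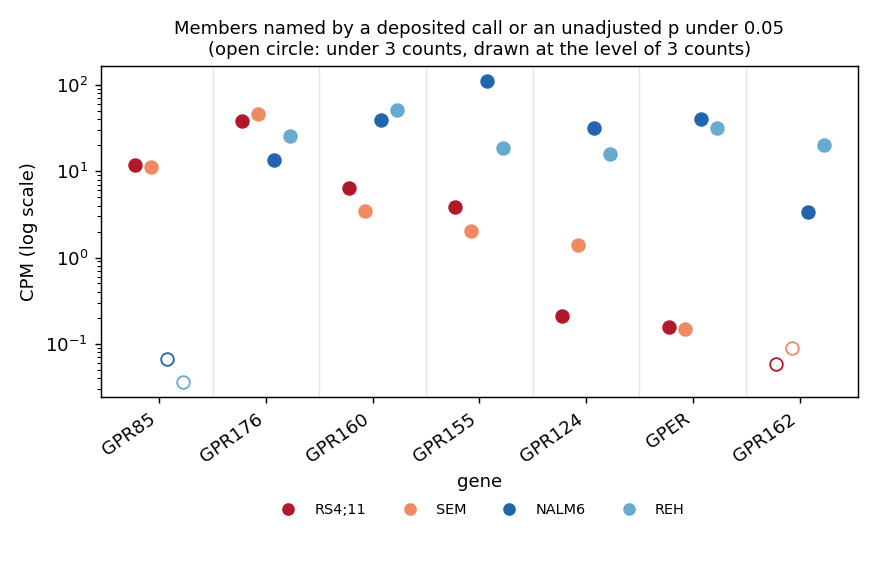
CPM on a log axis in each of the 4 lines for 7 of the members with a call in a deposited table or an unadjusted edgeR p under 0.05; open circles mark fewer than 3 counts, drawn at the level of 3 counts. GPR85 and GPR176 stand higher in RS4;11 and SEM, and GPR160, GPR155, GPR124, GPER and GPR162 stand higher in NALM6 and REH.

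Counted by order alone, 11 of the 57 members with at least 10 counts in 1 line had each t(4;11) line above each other line (19.3%, against 18.1% of all genes at that minimum), and 9 had the opposite order (15.8%, against 27.3% of all genes). Besides GPR85, GPR176 and GPR172A the higher ones included GPR65, GPR75, GPR82, GPR83, GPR84 and GPR183. Besides GPER, GPR124, GPR146, GPR155, GPR160 and GPR162 the lower ones were GPR135, GPR182 and GPR89B. Some of these gaps were slight. GPR75 had 3.05 and 3.15 against 2.32 and 2.03 CPM. GPR182 had only 5, 1, 5 and 10 counts in RS4;11, SEM, NALM6 and REH. GPR83, a receptor of brain and regulatory T cells, had a wider gap, at 2.41 and 2.14 against 0.178 and 0.796 CPM (log2 change 2.31, SE 0.99, edgeR adjusted p = 0.472). That change was 3.75 without REH and 1.62 without NALM6. GPR135, an orphan, had 1.27 and 0.506 against 3.14 and 1.99 CPM (log2 change -1.41, SE 0.80, edgeR adjusted p = 0.556), with a change of -2.24 without RS4;11 and -0.89 without SEM. GPR89B and GPR89A are near-identical copies of a Golgi pH regulator and can share reads, so that the 1.25, 1.31, 2.05 and 1.59 CPM of GPR89B and the 6.54, 6.75, 7.85 and 5.08 CPM of GPR89A, given for RS4;11, SEM, NALM6 and REH, are uncertain.

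Large differences from line to line were common. Among the 47 members with at least 1 CPM in 1 line, 27 (57.4%) differed at least 10-fold between their highest and lowest line, against 21.7% of all genes at that level, with levels under 3 counts set to 3 counts. Much of this lay inside the groups. Between RS4;11 and SEM 7 of 40 members (17.5%) differed at least 10-fold, against 6.51% of all genes. Between NALM6 and REH it was 10 of 38 members (26.3%), against 11.3% of all genes. With 1 library per line these within-group differences have no replicate check.

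In 5 members (10.6%, against 5.76% of all genes) 1 line stood at least 10-fold above every other. GPR128 (ADGRG7), an adhesion receptor known from intestine, had 1259 counts (24.3 CPM) in RS4;11, 0 counts in SEM and NALM6 and 4 counts in REH. GPR173 and GPR84 were the ones highest in SEM. GPR84, a receptor of medium-chain fatty acids found on myeloid cells, had 5.47 CPM (SEM) and 0.193, 0.178 and 0.0594 CPM in RS4;11, NALM6 and REH. The 8 myeloid markers summed to 13.8 CPM (RS4;11), 38.3 CPM (SEM), 8.56 CPM (NALM6) and 41.1 CPM (REH); their part in the GPR84 level was not tested. The ones highest in REH were GPR161 and GPR142. GPR161, a receptor of the primary cilium that holds back Hedgehog signals, had 11.2 CPM (REH) and at most 0.327 CPM in the other lines. GPR142, known from pancreatic islets, had 89 counts (1.06 CPM) in REH and 0 counts elsewhere.

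GPR63 showed the reverse, with 1 line lacking a gene that the others expressed. This brain-enriched orphan on chromosome 6 (97241998 to 97285353, hg19) had 29.7 CPM (RS4;11), 35.4 CPM (SEM) and 33.2 CPM (NALM6), and 0 counts in REH, the most deeply sequenced library. A level of 3 counts there would be 0.0356 CPM. The group means therefore hide the pattern: the log2 change, which rests on the 0 counts of REH, was 1.08 (SE 2.75, edgeR adjusted p = 0.904), and 0.07 without REH. GPR158, a class C receptor of brain that binds glycine, had 28.2 CPM (SEM), 7.48 CPM (REH), 0.463 CPM (RS4;11) and 0 counts in NALM6. GPR133 (ADGRD1), an adhesion receptor, had 31.8 CPM (RS4;11), 5.50 CPM (REH), 2.65 CPM (SEM) and 0.424 CPM (NALM6). For both genes each group held 1 high and 1 low line.

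The other receptors of lipid and small ligands, some of them typical of lymphocytes, were low or uneven. GPR18, whose proposed ligand is N-arachidonylglycine, had 31.0 CPM (NALM6), 9.50 CPM (RS4;11), 1.34 CPM (SEM) and 0.309 CPM (REH), a span of 100.4-fold with the highest and lowest line both lacking t(4;11). GPR183, the oxysterol receptor EBI2 of B cells, had 2.62 CPM (SEM) and 0.347, 0.223 and 0.107 CPM in RS4;11, NALM6 and REH. Its log2 change of 3.25 (SE 1.32, edgeR adjusted p = 0.457) was 1.20 without SEM. GPR174, a receptor of lysophosphatidylserine, was counted in every line at 2.20, 5.29, 15.9 and 2.94 CPM in RS4;11, SEM, NALM6 and REH, with overlapping groups. GPR34, which has the same ligand, stayed at 9 counts or fewer in every line, and GPR171, a receptor of T cells, had 1 count in all 4 libraries together. GPR55, a receptor of lysophosphatidylinositol, had 1.75, 0.922, 0.513 and 1.35 CPM, and GPR35, which responds to kynurenic acid, 1.00, 3.24, 0.446 and 1.39 CPM.

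Among the proton sensors GPR132 and GPR65 were expressed and GPR4 nearly not. GPR132, a lymphocyte receptor of the same family, had 23.2, 14.7, 22.3 and 13.2 CPM in RS4;11, SEM, NALM6 and REH, with overlapping groups and a log2 change of 0.21 (SE 0.47, edgeR adjusted p = 0.889) that turned to -0.17 without RS4;11 and -0.13 without REH. GPR65 (TDAG8), which raises cyclic AMP in acid surroundings, had 32.2 and 18.4 CPM with t(4;11) against 2.16 CPM (NALM6) and 11.7 CPM (REH). Its groups did not overlap, but its log2 change of 1.97 (SE 0.99, edgeR adjusted p = 0.520) ranged from 1.21 without NALM6 to 3.65 without REH. GPR4 had at most 5 counts in a line.

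Of the 18 adhesion receptors listed, 7 reached 1 CPM in at least 1 line and 6 were tested. The median log2 change of these 6 was -0.40, and GPR124 alone, 1 of the 6, had an unadjusted edgeR p under 0.05. It was lower, as were 5.87% of all genes tested. GPR125, GPR124, GPR128 and GPR133 among them are given above. GPR56 (ADGRG1), another of them, known from natural killer cells and blood stem cells, had 4.55 CPM (NALM6) and 0.598, 0.119 and 0.416 CPM in RS4;11, SEM and REH. The brain list covers brain or constitutively active receptors and also holds GPR142. Of its 25 genes, 7 reached 1 CPM in at least 1 line. GPR3, a constitutively active receptor that raises cyclic AMP, had 7.41 CPM (REH), against 0.328, 2.08 and 0.334 CPM in RS4;11, SEM and NALM6. The list of intracellular multipass proteins also holds the transporter GPR172A and its relative GPR172B. Of its 13 genes found in the table, 10 reached 1 CPM in at least 1 line, GPR172A among them.

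GPER and GPR146 stood high in the same lines, whereas the other neighbouring members did not or were too low to compare. GPR18 and GPR183 lie inside UBAC2 on chromosome 13 (99848628 to 100058554, hg19). GPR18 was highest in NALM6 and GPR183 in SEM, whereas UBAC2, a ubiquitin-associated protein of the endoplasmic reticulum, had 77.6, 32.03, 63.46 and 66.59 CPM in RS4;11, SEM, NALM6 and REH. GPR34 and GPR82 lie inside CASK on the X chromosome and stayed under 0.5 CPM in every line, with CASK at 20.6, 25.8, 49.0 and 28.8 CPM. GPR171 lies inside MED12L on chromosome 3. MED12L, a subunit of the Mediator complex, had 188 CPM (SEM) and 4.82 CPM (REH) against 0.0386 CPM (RS4;11) and 0 counts in NALM6, while GPR171 had 1 count in SEM. GPR56 and GPR97 are neighbours on chromosome 16, and GPR97 had at most 7 counts in a line. GPR110, GPR111, GPR115 and GPR116 of chromosome 6 had between 0 and 8 counts each in every line.

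**Figure D5:**
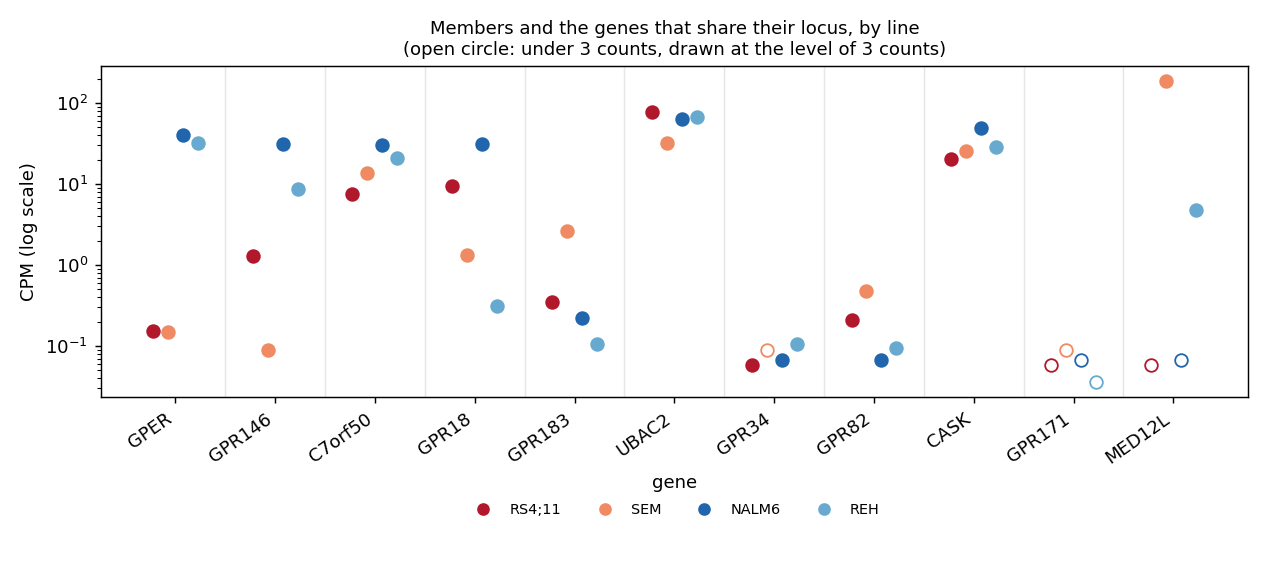
CPM on a log axis in each of the 4 lines for members and the genes that share their locus, in 4 groups from left to right: GPER with GPR146 and C7orf50, GPR18 with GPR183 and UBAC2, GPR34 with GPR82 and CASK, and GPR171 with MED12L; open circles mark fewer than 3 counts, drawn at the level of 3 counts. GPER and GPR146 are high in NALM6 and REH, while GPR18 and GPR183 are high in different lines and GPR171 stays under 3 counts everywhere.

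The genes that carry receptor signals onward were compared in the same way. Of 81 genes listed as G protein subunits, receptor kinases, arrestins, RGS proteins, adenylyl cyclases, phospholipase C beta enzymes and ligand sources, 57 were tested, and edgeR's quasi-likelihood test called 0 of them, while 1 was higher at an unadjusted p under 0.05 (1.75%, against 6.18% of all genes) and 5 were lower (8.77%, against 5.87%). The edgeR exact test called 1 (1.75%, against 3.19% of all genes in either direction) and DESeq2 called 3 (5.26%, against 11.2%), shares below those of all genes. Their median log2 change was -0.26, with 23 above and 34 below 0. The alpha subunits GNAS (1075, 698, 921 and 773 CPM), GNAI2 (248, 243, 321 and 173 CPM) and GNAI3 (112, 164, 122 and 121 CPM), in the order RS4;11, SEM, NALM6 and REH, were plentiful with overlapping groups. RGS9, an RGS protein known from retina and striatum, had 1 count in RS4;11 and 0 in SEM against 12.4 and 15.9 CPM, and was the 1 gene of the list called in the authors' deposited DESeq table (adjusted p = 2.95e-08; edgeR adjusted p = 0.294). GNG7, a gamma subunit, had 61.2 and 32.9 against 137.5 and 241 CPM (log2 change -1.90, SE 0.49, edgeR adjusted p = 0.361) and the authors' deposited Cuffdiff table listed it as lower (q = 0.0188).

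ADCY6, an adenylyl cyclase, had 41.5, 223, 2.65 and 43.3 CPM in RS4;11, SEM, NALM6 and REH with overlapping groups, and the authors' deposited Cuffdiff table listed it as higher (q = 0.0365). PSAP, the precursor of saposins and a proposed ligand source of GPR37, was also listed as higher there (the authors' deposited table, q = 0.00748), with 218, 829, 125 and 231 CPM in the same order; GPR37 itself had 1 count in all 4 libraries. The partners with the largest and smallest fitted log2 changes among those at 1 CPM in 1 line were GNG4 (1.10 and 0.208 against 0.0223 and 0.0119 CPM; 5.25, SE 1.34, edgeR adjusted p = 0.360) and RGS1, an RGS protein of B cells (1.00 and 8.92 against 0.0223 and 0.641 CPM; 3.96, SE 2.06, edgeR adjusted p = 0.530), and at the other end RGS9 and GRK5, a receptor kinase (1.06 and 0.892 against 2.10 and 11.5 CPM; -2.70, SE 1.07, edgeR adjusted p = 0.448). The arrestin ARRB1 had 27.95 and 5.09 against 118 and 59.3 CPM, without overlap (log2 change -2.31, SE 0.99, edgeR adjusted p = 0.472). NAPEPLD, an enzyme of the N-acyl amide pathway that feeds GPR18 ligands, had 11.5 and 6.54 against 28.9 and 53.1 CPM (log2 change -2.08, SE 0.53, edgeR adjusted p = 0.360). CH25H and CYP7B1, which make the oxysterol ligand of GPR183, had 4 counts in REH and 0 elsewhere, and 0 in all lines.

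Some levels rest on how reads were assigned. The readthrough transcript GPR75-ASB3 was listed at 0 counts in every line, yet at 2.20 and 4.03 FPKM with and without t(4;11) in the authors' deposited Cuffdiff table, so the 2 methods divided the reads of GPR75, ASB3 and their joint transcript differently. Of the 47 members with at least 1 CPM in 1 line, 11 shared a Cuffdiff locus with another gene.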

How the data were processed

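The members, gene lists and tests were chosen with earlier results of these data known. Per the submitters' processing notes, CASAVA 1.8.2, TopHat2 2.0.4, HTSeq, DESeq and Cuffdiff were used with genome build hg19; the annotation and settings are not stated there. Per the labels' protocols, libraries came from a TruSeq RNA kit, which does not mark strand. In the deposited count table are the HTSeq counts of each gene and line, and the authors' DESeq normalized counts, a signal made by dividing each count by 1 size factor per line. Per the file headers it also holds a fold change by the authors (a ratio of group means), with p-values. The authors' Cuffdiff table holds FPKM per group, a log2 fold change and q-values. Signs were turned so that positive is higher with t(4;11).

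CPM divides counts by a line's summed counts. Of the 23368 entries, the 13844 that passed filterByExpr were fitted together with edgeR 4.0.16 (R 4.3.3). The fit used glmQLFit and glmQLFTest after TMM scaling, two-sided, Benjamini-Hochberg adjustment at 0.05, 2 residual degrees of freedom. DESeq2 1.42.0, edgeR's exact test, RLE scaling, other filters and prior counts, and leaving out each line were alternatives. A standard error is the log2 fold change divided by the square root of F. Single members were named if they reached 1 CPM in 1 line and were called in a deposited table, had an unadjusted p under 0.05, had groups without overlap, stood 10-fold above in 1 line or were among the 10 highest, or if they belonged to a fixed neighbour group. Other members were added for their roles after their values were seen. Of the signalling partners, those called in a deposited table and the 2 largest and 2 smallest fitted changes were named by rule; GNAS, GNAI2, GNAI3, ARRB1, NAPEPLD, CH25H and CYP7B1 were added afterwards. Reads carry no molecular identifiers and are not independent molecules, so intervals and floors describe counting error alone. Coordinates are Cuffdiff's loci in hg19, counted from 1; a locus can span several genes. Dates had replaced 28 symbols of the count table, which no rule here matches. Figures were drawn with matplotlib 3.10.9. Some genes are not reported here by name or in figures, though counts over all members include them.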

Additional observations from a re-analysis of the deposited data

How the results depend on the processing

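The count of GPR symbols called was 0 with edgeR's quasi-likelihood test, 7 with edgeR's exact test (15.9% of members, against 3.19% of all genes) and 8 with DESeq2 (16.7%, against 11.2%); it stayed at 0 with RLE scaling, under both other filters and without any 1 line. For the signalling partners these counts were 0, 1 and 3, and again 0 under the other settings. Members higher in both t(4;11) lines numbered 11, and from 17 to 25 when 1 line was left out; those lower numbered 9, and from 14 to 24. Fewer lines have to be in order then, so these counts grow by construction. With TMM-scaled CPM or other count minimums they were within 1.5 times of the values given. So were the counts of members at 1 CPM per line with 0.5 CPM, 2 CPM or TMM scaling. For 27 members named by rule the log2 fold change was followed over 188 alternatives, and 8 of these, in 6 members, changed sign, each with 1 line left out. With any 1 line left out GPR18 ranged from -3.45 to 4.24 (positive without NALM6), GPR161 from -7.94 to 0.42 and GPR125 from -1.07 to 0.98 (both positive without REH). GPR132 ranged from -0.17 to 0.63 (-0.17 without RS4;11, -0.13 without REH), GPR107 from -0.17 to 0.14 (0.14 without RS4;11, 0.11 without NALM6) and GPR180 from -0.47 to 0.21 (positive without SEM). The groups of these 6 overlapped. Where groups do not overlap, leaving out a line cannot turn the order of their CPM. The count ratios of GPR162 and GPR85 without a line were added after the values were seen. No paired analysis was possible because the labels number no replicates and nothing pairs the lines. Depth limits the lowest genes: 3 counts were 0.0892 CPM in SEM, against 0.0356 CPM in REH.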
